A study of Mus musculus with 12 samples.

Results

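The genes of the proteasome were examined in male germ cells of PWD/Ph (PWD) and C57BL/6J (B6) mice. The members were all genes whose symbol begins with Psma to Psmg and a digit and that were named alone by at least 1 probeset, a set of short probes on the array that reads 1 transcript; the gene *Psmc3ip*, whose product only carries the name, was left out. This rule gave 48 genes of the 18193 genes represented, read by 101 probesets, and it used symbols and no measured value. Of the 48, *Psme3ip1* encodes a partner of PSME3 and no subunit, so 47 subunits, activators, inhibitors and assembly chaperones remained. *Psme2* was outside the rule because its probeset also names *Psme2b*.

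The proteasome degrades proteins that carry a ubiquitin tag. Its core particle is a stack of rings: outer alpha rings gate the entry, and inner beta rings hold the catalytic sites. The regulatory particle binds the end of the core, recognises and removes ubiquitin, and unfolds the substrate with a ring of ATPases. Other caps, the activators, open the core without ubiquitin recognition. Male germ cells are known for a variant particle, the spermatoproteasome, in which PSMA8 replaces the alpha subunit PSMA7 and PSME4 often serves as the cap. PSME4 has been tied to the removal of acetylated histones. The immunoproteasome, known from immune cells and from cells exposed to interferon gamma, carries PSMB8 in place of the catalytic subunit PSMB5, PSMB9 in place of PSMB6 and PSMB10 in place of PSMB7, and often the cap formed by PSME1 and PSME2.

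PWD derives from *Mus m. musculus* and B6 is of mostly *Mus m. domesticus* origin. Both are inbred strains with no treatment named in the labels, and all mice were 8 to 10 weeks old and ate the same standard diet. Cells were sorted from testes into 3 populations. The prepachytene cells ran from leptotene to early pachytene, the pachytene cells from mid pachytene to diplotene, and the spermatids made up the last, so the spermatocyte populations mixed several stages. Each of the 6 groups had 2 samples, from 2 animals per population, and each of the 12 samples was read on 1 array from 15 to 40 ng of total RNA. Nothing in the labels ties a replicate number to an animal.

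Expression was read as log2 values, on which a difference of 1 is a doubling. Values up to 4.51, the 95th percentile of 58 probesets of genes of other organs, were treated as background, and 43 of the 48 members had a mean above it. The replicates of a group correlated at 0.987 to 0.996 across probesets, and the number of arrays limits the precision. All 18 prepachytene markers fell into pachytene, 14 of 16 pachytene and diplotene markers rose, and all 27 spermatid markers rose into spermatids. All 27 spermatid markers were above background in every group. The median of 14 Sertoli cell markers was 6.19 to 6.56 on the B6 and 8.40 to 8.45 on the PWD prepachytene arrays, 3.94 to 4.39 on the pachytene arrays and 4.55 to 5.67 on the spermatid arrays. The median of 11 spermatogonia markers was 5.13 to 5.19 on the B6 and 6.29 to 7.26 on the PWD prepachytene arrays and 2.71 to 3.18 on the others. In sorted cells, fewer cells of a type and less RNA per cell cannot be told apart.

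More proteasome genes fell than rose at both steps of differentiation. From prepachytene to pachytene, averaged over both strains, 13 members rose, 24 fell and 11 did not pass the threshold (adjusted p of 0.05). From pachytene to spermatids 5 rose, 23 fell and 20 did not pass. *Psma7*, *Psme1* and *Psmg3* fell most at the first step, and *Psma8*, *Psmd14* and *Psmb1* at the second. The catalytic subunits *Psmb5* and *Psmb7*, the ATPases *Psmc3* and *Psmc5* and the activator *Psme4* rose into pachytene, and *Psmd10*, *Psme3* and *Psmf1* had the largest gains into spermatids. These are values of each gene's brightest probeset. Other probesets of *Psme3* and *Psmf1* fell into spermatids. With the median of its 3 probesets, of which only the brightest was above background, the second fall of *Psmb1* was -0.12 and not called.

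These counts have to be read against the whole array. Among all genes 43.7% rose and 28.4% fell into pachytene, and among genes above background 41.0% rose and 41.3% fell. Into spermatids the shares were 18.2% and 23.8% of all genes, and 25.7% and 41.2% of genes above background. The median difference of the 48 members was -0.37 at the first step and -0.36 at the second on the log2 scale, against 0.08 and 0.01 for all genes. For the 43 members above background it was -0.38 and -0.42, against 0.01 and -0.25 for all genes above background. Centring each array on its probesets above background shifted every value by 0.36 at the first step and by 0.24 at the second, and it gave 21 members higher and 19 lower into pachytene and 12 higher and 18 lower into spermatids. The share of higher calls was thus 35.1% as deposited and 52.5% after centring at the first step, and 17.9% and 40.0% at the second. No called change into pachytene or spermatids of the members chosen for full values turned its direction under quantile normalization or centring.

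**Figure D1:**
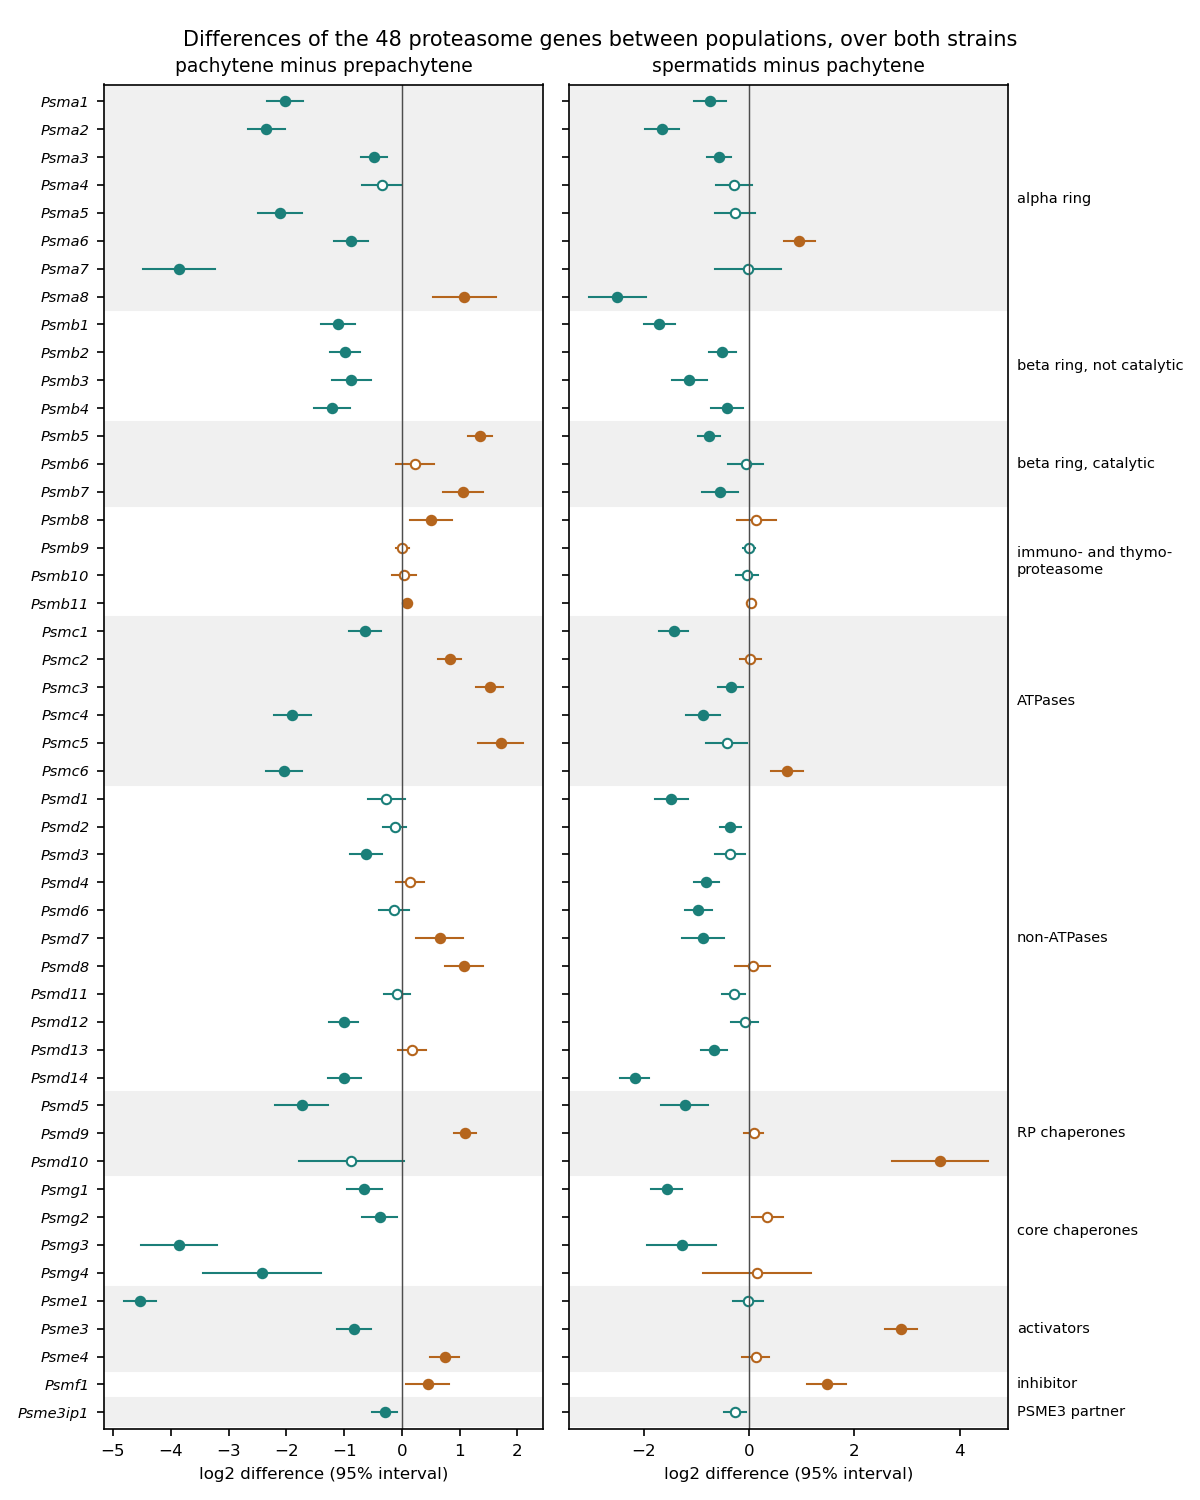
Difference of each of the 48 genes on the log2 scale (horizontal axis) from prepachytene to pachytene (left) and from pachytene to spermatids (right), averaged over both strains and grouped by role. Points are the fitted differences, lines their 95% intervals, filled points passed the threshold and open points did not; 24 genes lie filled on the left of zero in the first panel and 23 in the second.

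Most alpha ring genes fell into pachytene. Of its 8 genes 6 fell into pachytene, *Psma4* did not pass (-0.35, adjusted p = 0.0618) and *Psma8* rose. Among genes above background 41.3% fell at this step. *Psma7*, the alpha subunit of somatic proteasomes, was at 7.48 and 7.50 in B6 and 9.60 and 9.53 in PWD prepachytene cells, at 5.41 and 4.53 (B6) and 4.32 and 4.41 (PWD) in pachytene cells, and at 4.46 and 5.59 (B6) and 4.29 and 4.26 (PWD) in spermatids. All 4 prepachytene arrays were above all later ones, and the PWD arrays were below background from pachytene on. The gene fell by 3.86 on the log2 scale (SE 0.27, adjusted p = 5.44e-06), a size to which the PWD values below background contribute. In PWD alone it was at least 33.2-fold lower in pachytene cells. The other probeset of *Psma7* fell by 3.36 in B6 (adjusted p = 5.89e-07) and was at least 28.9-fold lower in PWD pachytene cells (adjusted p = 7.38e-08). The Sertoli cell markers moved in the same direction as *Psma7* between the prepachytene and pachytene arrays, 9 of the 14 having fallen, as did 6 of the 11 spermatogonia markers, and the part of either list in its values was not tested.

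*Psma8*, the germ cell counterpart of *Psma7*, showed another course. It was at 13.82 and 13.51 in B6 and 12.94 and 11.81 in PWD prepachytene cells, at 13.88 and 13.45 (B6) and 14.39 and 14.66 (PWD) in pachytene cells, and at 11.23 and 11.07 (B6) and 11.97 and 12.08 (PWD) in spermatids. The rise of 1.08 into pachytene (SE 0.24, adjusted p = 0.00453) came from PWD, with a difference of 2.15 (adjusted p = 9.43e-04), while the B6 arrays of both populations overlapped, with a difference of 0.00. *Psma8* then fell by 2.51 into spermatids (adjusted p = 7.14e-05), the largest fall of any member at that step.

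Among the other alpha genes, *Psma2* fell at both steps, by 2.34 and 1.66 on the log2 scale (adjusted p = 2.18e-06 and 4.26e-05). Its arrays lay at 13.47 to 14.05 in prepachytene cells, 11.08 to 11.90 in pachytene cells and 9.43 to 10.10 in spermatids, with no overlap between populations. *Psma1* went from a range of 12.54 to 13.00 to one of 10.25 to 11.27 into pachytene and fell by 2.02 (adjusted p = 3.73e-06). *Psma5* went from a range of 13.47 to 14.31 to one of 11.43 to 12.04 and fell by 2.11 (adjusted p = 1.15e-05). In both genes the arrays of the populations did not overlap. *Psma6* was the alpha gene that recovered: its arrays went from a range of 14.63 to 15.29 to one of 13.83 to 14.30 and back to one of 14.73 to 15.30, a difference of -0.89 (adjusted p = 4.66e-04) and a rise of 0.95 (adjusted p = 5.05e-04).

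**Figure D2:**
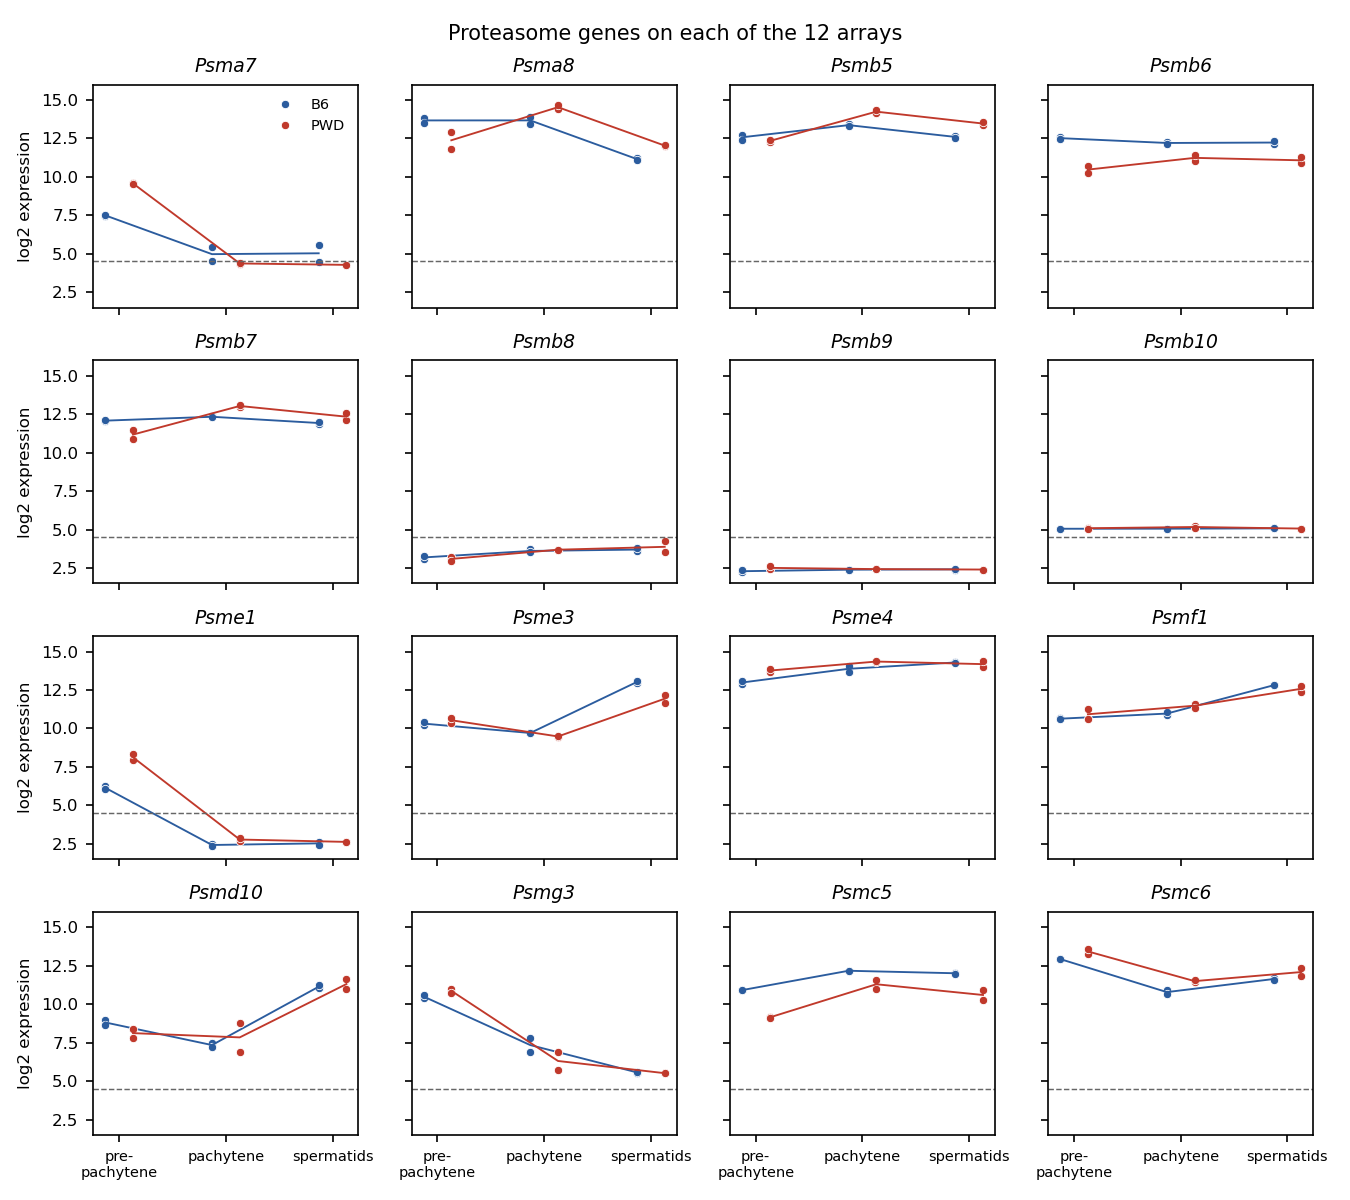
Log2 expression (vertical axis) of 16 proteasome genes on each array, by population (horizontal axis). Points are single arrays of B6 (blue) and PWD (red), lines join the group means, and dashes mark 4.51, taken as background; *Psme1* in both strains and *Psma7* in PWD lie under the dashes in pachytene cells, while *Psma8*, *Psmb5* and *Psme4* lie above them throughout.

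The 4 beta genes without a catalytic site, *Psmb1* to *Psmb4*, fell at both steps, with differences of -1.21 to -0.88 into pachytene and -1.71 to -0.42 into spermatids. Of genes above background 41.3% fell at the first step and 41.2% at the second. *Psmb1* was at 11.75 and 11.63 in B6 and 12.27 and 12.06 in PWD prepachytene cells, 10.52 and 10.43 (B6) and 11.01 and 11.35 (PWD) in pachytene cells, and 9.01 and 8.66 (B6) and 9.28 and 9.53 (PWD) in spermatids, so that it fell again by 1.71 (SE 0.13, adjusted p = 2.08e-05). With the median of its 3 probesets in place of the brightest one the second fall was -0.12 and not called. Only the brightest of the 3 was above background by its mean. *Psmb1* lies on Chr 17 next to *Tbp* and *Pdcd2*, beyond which the annotation lists *Prdm9*.

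Of the 3 constitutive catalytic genes *Psmb5* and *Psmb7* rose into pachytene and fell into spermatids. *Psmb5*, which encodes the chymotrypsin-like subunit, was at 12.71 and 12.42 in B6 and 12.24 and 12.41 in PWD prepachytene cells, at 13.40 and 13.32 (B6) and 14.15 and 14.32 (PWD) in pachytene cells and at 12.64 and 12.54 (B6) and 13.39 and 13.54 (PWD) in spermatids. Pachytene arrays were above prepachytene arrays in both strains, by 1.35 (SE 0.09, adjusted p = 3.98e-06), and the level fell by 0.77 into spermatids (adjusted p = 2.36e-04). *Psmb7*, the trypsin-like subunit, went from 12.05 and 12.11 in B6 and 11.46 and 10.89 in PWD prepachytene cells to 12.38 and 12.29 (B6) and 12.99 and 13.07 (PWD) in pachytene cells and 11.83 and 12.02 (B6) and 12.09 and 12.58 (PWD) in spermatids. It rose by 1.06 (adjusted p = 4.46e-04), mostly in PWD.

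The later fall of *Psmb7*, -0.55 (adjusted p = 0.0235), was less firm: the call was lost without either B6 pachytene array, either PWD pachytene array, B6 spermatid replicate 1 or PWD spermatid replicate 1, at values of -0.67 to -0.43. *Psmb6*, the caspase-like subunit, was at 12.58 and 12.45, 12.24 and 12.15 and 12.15 and 12.30 in the successive B6 populations and at 10.71 and 10.23, 11.05 and 11.41 and 10.87 and 11.27 in those of PWD. Neither step passed the threshold for it over both strains (differences of 0.22 and -0.07, 95% intervals -0.11 to 0.56 and -0.40 to 0.27). In PWD alone *Psmb6* was called higher in pachytene cells, by 0.76, as were *Psmb5* and *Psmb7*. In B6 alone its difference was -0.31 and not called. The difference of its changes in the strains, 1.08, did not pass.

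The immunoproteasome and thymoproteasome genes lay at or near background. *Psmb8* lay at 2.98 to 4.24 over the 12 arrays, *Psmb9* at 2.23 to 2.61 and the thymic *Psmb11* at 2.31 to 2.58, all below background. The calls of *Psmb8* and *Psmb11* into pachytene (differences of 0.51 and 0.09) were therefore between values below background, and each was lost without any of 4 arrays, at values of 0.45 to 0.57 and 0.07 to 0.12. Those arrays were B6 prepachytene replicate 1 and PWD prepachytene replicate 2 for both genes, with replicate 1 of both pachytene groups for *Psmb8* and replicate 2 of both for *Psmb11*. *Psmb10* lay above the background level but within 5.04 to 5.20 on all 12 arrays, with differences of 0.04 (95% interval -0.17 to 0.25) and -0.04 (-0.25 to 0.17). Of 14 leukocyte markers 3 were above background, and the list's median was 2.72 to 3.10 on all 12 arrays. *Ptprc*, the common leukocyte surface phosphatase, lay at 2.16 to 2.60.

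The 6 ATPases of the regulatory particle went opposite ways into pachytene. *Psmc2*, *Psmc3* and *Psmc5* rose, while *Psmc1*, *Psmc4* and *Psmc6* fell. Among genes above background 41.0% rose and 41.3% fell. *Psmc5* was at 10.93 and 10.91 in B6 and 9.17 and 9.12 in PWD prepachytene cells, 12.19 and 12.17 (B6) and 11.01 and 11.60 (PWD) in pachytene cells, and 12.06 and 11.98 (B6) and 10.28 and 10.93 (PWD) in spermatids. Its rise of 1.71 (SE 0.17, adjusted p = 4.81e-05) was the largest of any member into pachytene. *Psmc3* rose by 1.52 (adjusted p = 4.22e-06), from a range of 13.35 to 13.74 to one of 14.78 to 15.22.

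*Psmc6* went from 12.92 and 12.96 in B6 and 13.29 and 13.58 in PWD prepachytene cells to 10.93 and 10.65 (B6) and 11.44 and 11.57 (PWD) in pachytene cells and 11.69 and 11.60 (B6) and 11.83 and 12.36 (PWD) in spermatids. It fell by 2.04 (adjusted p = 3.71e-06) and then rose by 0.72 (adjusted p = 0.0034). Another of its probesets lay at 10.76 to 11.82, 6.67 to 7.52 and 5.02 to 6.00 in the successive populations and fell by 1.48 at the second step (adjusted p = 0.00153), so the direction into spermatids depended on the probeset read. *Psmc4* fell at both steps, by 1.90 and 0.87, as did *Psmc1*, by 0.64 and 1.44.

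More non-ATPase subunits fell into spermatids than into pachytene. Of 11 genes 2 rose, 3 fell and 6 did not pass into pachytene, whereas 7 fell and none rose into spermatids. Among genes above background 41.3% fell at the first step and 41.2% at the second. *Psmd14*, the deubiquitinating enzyme of the regulatory particle, was at 13.84 and 13.57 in B6 and 13.53 and 13.49 in PWD prepachytene cells, 12.66 and 12.33 (B6) and 12.53 and 12.93 (PWD) in pachytene cells and 10.48 and 10.47 (B6) and 10.31 and 10.47 (PWD) in spermatids. The populations did not overlap, and it fell by 1.00 and then by 2.18 (SE 0.12, adjusted p = 5.91e-06). *Psmd1*, a scaffold subunit, lay at 12.55 to 13.06 in prepachytene, 12.11 to 12.99 in pachytene cells and 10.67 to 11.68 in spermatids, and fell only at the second step, by 1.48 (adjusted p = 6.31e-05). The ubiquitin receptor *Psmd4* fell by 0.82 there (adjusted p = 3.72e-04). *Psmd8* rose by 1.07 into pachytene (adjusted p = 3.28e-04), from a range of 10.83 to 11.65 to one of 12.24 to 12.44, and *Psmd7* by 0.66 (adjusted p = 0.0111).

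Averaged over both strains, the 4 assembly chaperones of the core all fell into pachytene. Of all genes 28.4% fell at this step, and of genes above background 41.3%. In B6 alone 3 of the 4 were called lower and in PWD alone 2, against 37.3% and 37.1% of genes above background. *Psmg3* was at 10.42 and 10.59 in B6 and 10.99 and 10.75 in PWD prepachytene cells, at 6.91 and 7.79 (B6) and 5.70 and 6.92 (PWD) in pachytene cells and at 5.55 and 5.59 (B6) and 5.52 and 5.52 (PWD) in spermatids. It fell by 3.86 (SE 0.29, adjusted p = 7.67e-06), and the replicates of a pachytene group differed by about as much as the strains. *Psmg1* fell by 0.65 and 1.57 at the successive steps (adjusted p = 0.00293 and 3.66e-05). The arrays of *Psmg2* went from 11.20 and 10.80 to 10.11 and 10.00 in B6 into pachytene. In PWD they went from 11.02 and 11.00 to 11.18 and 11.18. Its other probeset above background went from 10.45 and 10.35 to 10.05 and 9.78 in B6 and from 10.49 and 9.92 to 11.39 and 11.44 in PWD. *Psmg4* was at 4.58 to 6.91 in prepachytene cells, with wide spread, and below background on every later array, at least 2.4-fold lower in pachytene cells (adjusted p = 0.00192).

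Of the 3 chaperones of the regulatory particle, *Psmd5* fell at both steps, by 1.73 and 1.23. *Psmd9* rose by 1.10 into pachytene (adjusted p = 7.42e-06), from a range of 7.91 to 8.27 to one of 8.80 to 9.60, although another probeset of the gene, at 5.57 to 7.30 and 4.85 to 6.03, gave a difference of -0.69 that did not pass (adjusted p = 0.0708), and in PWD alone fell by 1.41 (adjusted p = 0.0206). *Psmd10*, the X-linked member of the 48, was at 8.98 and 8.66 in B6 and 7.83 and 8.42 in PWD prepachytene cells, 7.49 and 7.20 (B6) and 8.81 and 6.88 (PWD) in pachytene cells and 11.03 and 11.25 (B6) and 10.99 and 11.63 (PWD) in spermatids. The X chromosome is known to be silenced in pachytene spermatocytes. The difference into pachytene was -0.87 (95% interval -1.78 to 0.04, adjusted p = 0.079) and not called, and PWD pachytene replicate 1 lay above 3 of the 4 prepachytene arrays. Without that array it was -1.35 and called. The median of the 27 spermatid markers was 10.45 on that array, 9.20 on PWD pachytene replicate 2 and 9.92 and 9.69 on the B6 pachytene arrays. Its part in the value of *Psmd10* was not tested. Into spermatids *Psmd10* rose by 3.63 (SE 0.39, adjusted p = 1.56e-04), the largest gain of any member, with every spermatid array above every other.

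Of the 3 activators *Psme1* and *Psme3* fell and *Psme4* rose into pachytene. *Psme1*, part of a cap induced by interferon, was at 6.23 and 6.05 in B6 and 7.93 and 8.31 in PWD prepachytene cells and at 2.36 to 2.88 on all 8 later arrays, below background. It was at least 6.13-fold lower in pachytene than in prepachytene cells (measured difference -4.53, SE 0.12, adjusted p = 3.19e-08). The Sertoli cell markers, with 9 of 14 above background in B6 and 10 in PWD prepachytene cells against 5 and 6 in pachytene cells, moved with *Psme1* both between populations and, in prepachytene cells, between strains. Between populations the 11 spermatogonia markers moved in the same direction by their median. Of these, 7 were above background in prepachytene cells of each strain, against 1 in B6 and 2 in PWD pachytene cells. Into pachytene 6 of them fell and 1 rose. Between the strains in prepachytene cells 2 were higher in PWD, 1 was lower and 8 did not pass. The median of the markers' strain differences there was 0.01. Of the 27 spermatid markers 10 were higher in PWD prepachytene cells and none was lower. The part of these lists in the result for *Psme1* was not tested. Of the 14 leukocyte markers 2 were above background in B6 and 1 in PWD prepachytene cells, and 1 was called lower in PWD there. *Ptprc* was below background on the same arrays. The part of leukocytes was not tested either.

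*Psme4*, the cap of the spermatoproteasome, was at 12.89 and 13.08 in B6 and 13.68 and 13.84 in PWD prepachytene cells, 14.05 and 13.70 (B6) and 14.34 and 14.36 (PWD) in pachytene cells and 14.30 and 14.27 (B6) and 14.01 and 14.36 (PWD) in spermatids. It rose by 0.74 into pachytene (SE 0.11, adjusted p = 5.34e-04) and differed by 0.12 (95% interval -0.13 to 0.37) afterwards. Another of its probesets above background lay at 9.41 to 10.84 in pachytene cells and higher, at 11.04 to 11.91, in spermatids. The remaining one above background overlapped, at 12.04 to 13.11 and 12.67 to 13.16, so the level course after pachytene depended on the probeset read. *Psme3*, whose product is a nuclear activator, was at 10.24 and 10.40 in B6 and 10.38 and 10.68 in PWD prepachytene cells, 9.70 and 9.70 (B6) and 9.47 and 9.49 (PWD) in pachytene cells and 12.94 and 13.11 (B6) and 11.69 and 12.18 (PWD) in spermatids. Pachytene arrays were the lowest and spermatid arrays the highest, with a rise of 2.89 (SE 0.13, adjusted p = 2.33e-06). Another probeset of *Psme3* went the other way, from a range of 7.42 to 8.03 to one of 6.53 to 7.39, and fell by 0.93 (adjusted p = 6.43e-04).

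*Psmf1*, which encodes the inhibitor PI31, gave the same kind of disagreement. Its brightest probeset was at 10.61 to 11.24 in prepachytene cells, 10.86 to 11.61 in pachytene cells and 12.38 to 12.81 in spermatids, and rose by 1.47 into spermatids (adjusted p = 1.52e-04). The 2 other probesets above background lay at 10.15 to 10.99 and 7.37 to 8.64 in pachytene cells and at 8.01 to 9.53 and 4.81 to 7.10 in spermatids, and fell by 1.70 and 2.00 (adjusted p = 2.91e-05 and 3.06e-05). Its rise of 0.44 into pachytene (adjusted p = 0.0364) was lost without any of 8 arrays, namely either B6 array of any population and replicate 1 of PWD prepachytene or pachytene cells, at values of 0.29 to 0.60. Of the 28 other probesets of members that were above background, those called together with the brightest probeset of their gene were compared with it. Into pachytene 14 were called in the same direction and none in the opposite one, while into spermatids 9 were called in the same direction and 4 in the opposite one. The 4 were those of *Psmc6*, *Psme3* and *Psmf1*. *Psmd11* was outside this count, because its brightest probeset was not called at either step. A dimmer probeset of *Psmd11* lay at 2.46 to 3.59, below background, in prepachytene cells and at 6.61 to 7.22 in pachytene cells. Another lay at 9.60 to 11.08 and at 7.30 to 8.10, so the direction depended on the probeset read.

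Sequences upstream of 4 genes are given because these genes carry the contrasts above: the alpha subunit that fell, the catalytic subunit that rose, the spermatoproteasome cap and the X-linked chaperone. Each shows the 250 bases before the annotated start (RefSeq, GRCm38.p6), 5′ to 3′ on the strand of the gene. *Psma7* lies on the minus strand (chr2:180042465-180042714), as do *Psmb5* (chr14:54617996-54618245) and *Psmd10* (chrX:140956712-140956961), and *Psme4* on the plus strand (chr11:30771525-30771774). Capitals mark TGACNNNGC, the core of the antioxidant response element, in *Psmb5*, AACNGNC, the MYB motif, in *Psme4*, and CCAAT, the NF-Y motif, or its reverse complement ATTGG in *Psma7* and *Psmd10*.
Psma7: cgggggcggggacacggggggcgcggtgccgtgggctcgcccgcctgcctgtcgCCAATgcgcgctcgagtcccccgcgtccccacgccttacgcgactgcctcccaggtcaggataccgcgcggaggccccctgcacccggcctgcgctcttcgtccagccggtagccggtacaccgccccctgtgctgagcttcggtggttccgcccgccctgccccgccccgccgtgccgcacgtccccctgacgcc
Psmb5: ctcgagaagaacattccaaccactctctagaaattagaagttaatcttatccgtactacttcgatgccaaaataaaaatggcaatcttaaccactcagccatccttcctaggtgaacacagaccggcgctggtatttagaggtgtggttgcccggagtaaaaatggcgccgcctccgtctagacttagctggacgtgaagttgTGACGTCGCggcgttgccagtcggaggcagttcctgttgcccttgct
Psme4: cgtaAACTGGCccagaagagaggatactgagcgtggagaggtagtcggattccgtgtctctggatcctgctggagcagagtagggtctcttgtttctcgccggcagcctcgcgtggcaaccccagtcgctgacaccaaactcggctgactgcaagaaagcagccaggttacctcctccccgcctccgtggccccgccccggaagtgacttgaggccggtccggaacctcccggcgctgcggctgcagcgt
Psmd10: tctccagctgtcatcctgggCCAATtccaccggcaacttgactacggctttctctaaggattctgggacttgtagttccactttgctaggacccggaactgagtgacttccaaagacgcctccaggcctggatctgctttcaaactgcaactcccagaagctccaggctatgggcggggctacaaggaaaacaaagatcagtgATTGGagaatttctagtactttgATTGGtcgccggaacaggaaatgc

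Of the 48 members 40 matched an entry of the RefSeq promoter table, with 43 promoters, and *Psma8*, *Psmb1*, *Psmb2*, *Psmb7*, *Psmc3*, *Psmd3*, *Psmd7* and *Psmg2* had none. Over windows of 300 bases, from 250 before to 50 after the start and on both strands, TGACNNNGC was present in 6 of the 40 genes (15.0%), namely *Psmb5*, *Psmb6*, *Psmc6*, *Psmd9*, *Psmd12* and *Psme4*, against 12.4% of all 32851 promoters. In *Psmb5* it begins 47 bases before the start and in *Psme4* 7 bases before it, where it runs past the sequence shown. CCAAT was present in 15 genes (37.5%) against 37.4% of all promoters, and in *Psmd10* at 3 places, 230, 47 and 24 bases before the start. AACNGNC was present in 18 genes (45.0%) against 32.8%. The cAMP response element TGACGTCA, which can share its first letters with TGACNNNGC, was in none of the 40 and in 1.79% of all promoters. The shares of members count genes and those of all promoters count promoters, so the 2 are of unlike units. A match describes letters and not a bound site.

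Members differed between the strains in each population, *Psmb6*, *Psma7* and *Psme1* by the most. In prepachytene cells 6 members were higher in PWD and 6 lower. In pachytene cells 11 were higher and 2 lower, and in spermatids 2 were higher and 4 lower. At least 1 population passed for 26 of the 48, close to the 54.5% of genes above background and more than the 39.3% of all genes. *Psmb6* was lower in PWD in all 3. Among all genes 16.6% were higher and 5.88% lower in PWD prepachytene cells (24.5% and 8.45% of genes above background), 12.1% and 5.05% in pachytene cells (20.0% and 6.81%), and 9.56% and 7.54% in spermatids (14.8% and 9.44%).

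The numbers in pachytene cells depended on the scaling. Quantile normalization of the deposited values gave 2 members higher and 4 lower there, and centring on probesets above background, which shifted all differences by -0.25, gave 4 higher and 3 lower. The share of higher calls was 84.6% as deposited, 33.3% after quantile normalization and 57.1% after centring. In prepachytene cells the split was 4 higher and 12 lower after quantile normalization (25.0% higher) and 4 and 16 after centring (20.0%), against an even split as deposited, and centring shifted all differences by -0.27. In spermatids quantile normalization gave 5 higher and 5 lower, against 33.3% higher as deposited. Leaving out 1 array at a time gave 2 to 15 members higher in pachytene cells: 5 without either B6 prepachytene array or either B6 spermatid array, 6 and 2 without B6 pachytene replicates 1 and 2, and 7 and 3 without PWD pachytene replicates 1 and 2.

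**Figure D3:**
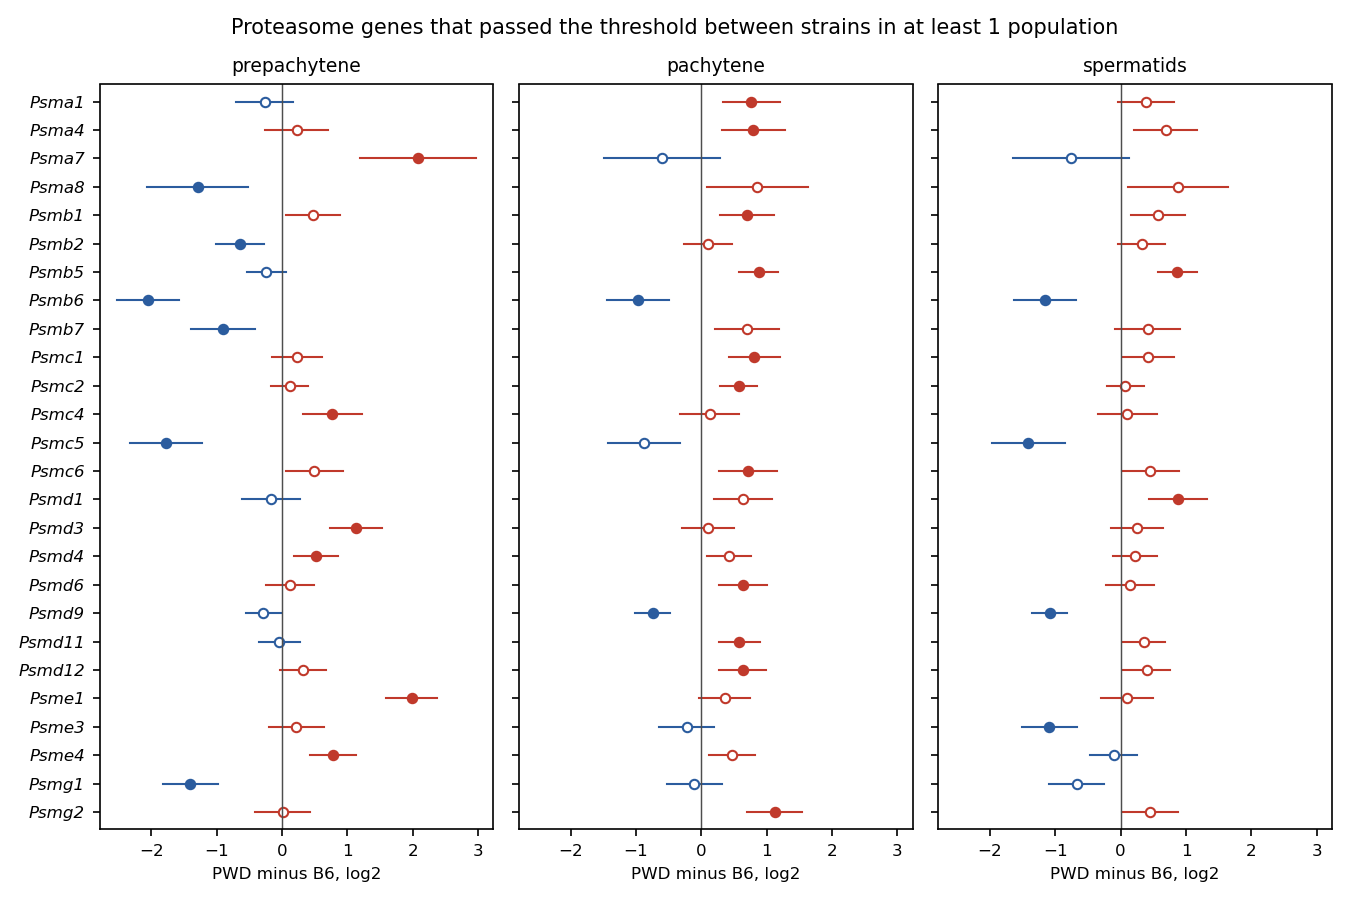
PWD minus B6 on the log2 scale (horizontal axis) in prepachytene spermatocytes, pachytene spermatocytes and spermatids for the 26 genes that passed the threshold in at least 1 population. Points are fitted differences, lines 95% intervals, filled points passed the threshold, and colour marks the strain with the higher value; *Psmb6* is filled and lower in PWD in all 3 panels.

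*Psmb6* had the largest deficit in PWD. Its B6 arrays lay at 12.15 to 12.58 over the 3 populations and its PWD arrays at 10.23 to 11.41, without overlap. The difference was -2.05 in prepachytene cells (SE 0.20, adjusted p = 3.55e-04), -0.97 in pachytene cells (adjusted p = 0.0194) and -1.16 in spermatids (adjusted p = 0.00784). The call in pachytene cells was lost without either B6 pachytene array or PWD pachytene replicate 1 (values of -1.14 to -0.79), and that in spermatids without B6 spermatid replicate 2 (range -1.35 to -0.96). *Psmc5* behaved similarly, with -1.77 in prepachytene cells (adjusted p = 0.00164), -0.88 in pachytene cells, where it did not pass (adjusted p = 0.0514), and -1.41 in spermatids (adjusted p = 0.00643). In each population both PWD arrays of *Psmc5* were below both B6 arrays.

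In prepachytene cells the subunits with the largest excess in PWD were *Psma7* and *Psme1*. *Psma7* was higher by 2.08 (SE 0.38, adjusted p = 0.00711) and *Psme1* by 1.98 (SE 0.17, adjusted p = 1.69e-04). The other probeset of *Psma7* was higher by 0.97 (adjusted p = 0.00198). On the same arrays 5 of the 14 Sertoli cell markers and 2 of the 11 spermatogonia markers were higher in PWD and 1 of each was lower. Of the 27 spermatid markers 10 were higher in PWD and none was lower, with a median difference of 0.86. Among genes above background 24.5% were higher and 8.45% lower. The part of these marker lists in the strain differences was not tested. *Psmd3*, a non-ATPase subunit, was at 9.94 and 9.61 in B6 and 11.04 and 10.77 in PWD, a difference of 1.13 (adjusted p = 0.00285). *Psme4* was higher by 0.78 (adjusted p = 0.00979), but not called without B6 prepachytene replicate 1 (leave-one-out values of 0.68 to 0.87) or with probesets free of a cross-hybridization suffix (0.62), an alternative chosen after seeing the data, and the median of its probesets gave -0.24. *Psmc4* was higher by 0.77 (adjusted p = 0.0293), a call lost without either B6 prepachytene array, PWD prepachytene replicate 1 or either B6 spermatid array (0.50 to 1.04) and under both other scalings.

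Lower in PWD prepachytene cells, beside *Psmb6* and *Psmc5*, were *Psmg1*, at 10.68 and 10.59 in B6 and 9.26 and 9.21 in PWD (-1.40, adjusted p = 0.00139), and *Psma8* (-1.29, adjusted p = 0.0309). The 2 PWD arrays of *Psma8* differed by more than the B6 arrays did, and the call was lost without either B6 prepachytene array, PWD prepachytene replicate 2 or either B6 spermatid array (-1.85 to -0.73). *Psmb7* was lower (-0.90, adjusted p = 0.0207), a call lost without either B6 prepachytene array or PWD prepachytene replicate 2 (-1.19 to -0.62). *Psmb2* was lower as well (-0.64, adjusted p = 0.0261).

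In pachytene cells the highest in PWD was the core chaperone *Psmg2*, at 10.11 and 10.00 in B6 and 11.18 and 11.18 in PWD, a difference of 1.12 (SE 0.18, adjusted p = 0.00588), which was called under both other scalings too. *Psmb5* followed with 0.88 (adjusted p = 0.00345), a call lost under quantile normalization, at 0.43. In spermatids *Psmb5* was higher in PWD by 0.87 (adjusted p = 0.00306), a call that held without each array in turn. *Psmc1* (0.81), *Psma4* (0.80) and *Psma1* (0.76) passed in pachytene cells as deposited, with adjusted p of 0.017, 0.0429 and 0.0355. Quantile normalization ended all 3 calls, and centring those of *Psma4* and *Psma1*. *Psmc1* was not called without either B6 pachytene array or PWD pachytene replicate 2 (0.64 to 0.98), *Psma4* without any of 8 arrays (0.64 to 0.96) and *Psma1* without any of 7 (0.56 to 0.96), these being arrays of B6 in any population or of PWD pachytene cells.

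The chaperone *Psmd9* was lower in PWD in pachytene cells and spermatids, at 8.80 and 8.88 against 9.60 and 9.58 in B6 pachytene cells and at 8.72 and 8.79 against 9.87 and 9.81 in B6 spermatids (-0.74 and -1.08, adjusted p = 0.00447 and 5.32e-04). Its other probeset above background differed by -0.23 and 0.15, neither called. *Psme3* was lower in PWD spermatids (-1.09, adjusted p = 0.00578). *Psmd1* was higher there by 0.88 (adjusted p = 0.0212), a call lost without either B6 spermatid array or PWD spermatid replicate 2 (0.79 to 0.97).

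The course into pachytene itself differed between the strains for 9 members, against 13.6% of all genes and 17.2% of genes above background. In B6 alone 7 members rose and 24 fell, against 23.2% and 24.1% of all genes and 35.3% and 37.3% of genes above background. In PWD alone 14 rose and 19 fell, against 38.7% and 25.7% of all genes and 36.9% and 37.1% of genes above background. The differences of the strains' changes, PWD minus B6, were positive for the core subunits *Psma8* (2.15, adjusted p = 0.0246), *Psmb7* (1.61, adjusted p = 0.0127), *Psmb5* (1.12, adjusted p = 0.00662) and *Psma1* (1.03, adjusted p = 0.0451). They were also positive for the core chaperones *Psmg1* (1.30, adjusted p = 0.0171) and *Psmg2* (1.11, adjusted p = 0.0308). *Psmb5* rose by 0.79 in B6 and by 1.91 in PWD, and *Psmb7* changed by 0.25 in B6, which did not pass, and by 1.86 in PWD.

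The differences were negative for *Psma7* (-2.68, adjusted p = 0.0177), *Psme1* (-1.63, adjusted p = 0.00458) and *Psmd3* (-1.03, adjusted p = 0.0323). *Psma7* fell by 2.52 in B6, to just above background, and was at least 33.2-fold lower in PWD pachytene cells, which were below background. *Psme1* was below background in pachytene cells of both strains, at least 3.09-fold lower than before in B6 and at least 12.2-fold in PWD. The sizes of the strain differences of both genes therefore rest in part on values below background. For the change into spermatids limma called no member, against 4.66% of all genes and 3.91% of genes above background, and 7 members had an unadjusted p under 0.05, the lowest that of *Psme3* (-0.87, adjusted p = 0.0972).

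**Figure D4:**
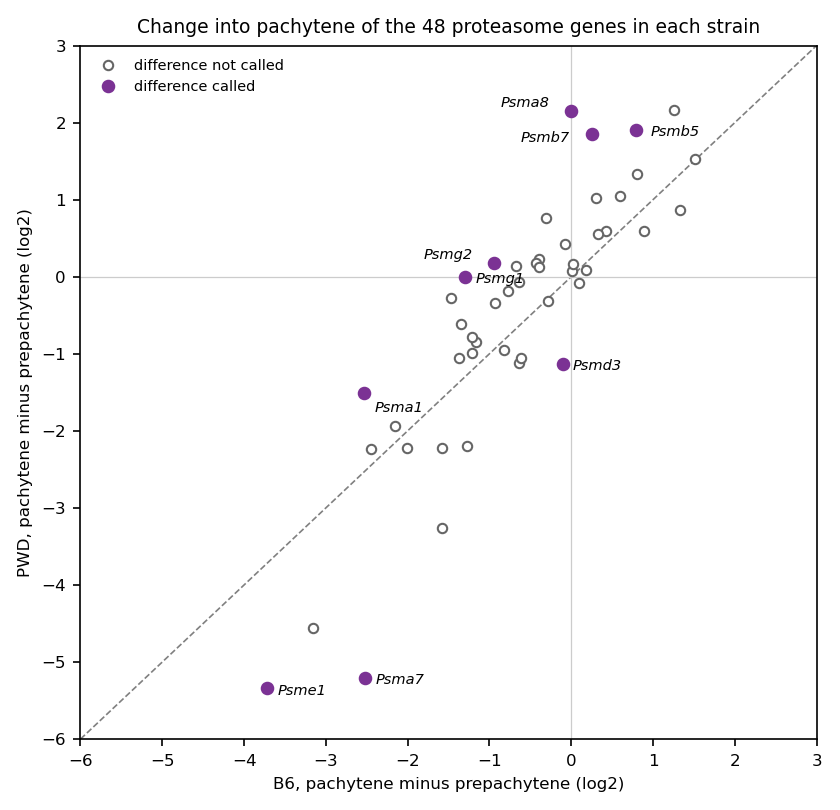
Change from prepachytene to pachytene on the log2 scale in B6 (horizontal axis) and PWD (vertical axis) for the 48 genes, 1 point each. Filled and named points are the 9 genes whose change differed between strains at the threshold, open points the others, and the dashed line marks equal change; *Psma8*, *Psmb5* and *Psmb7* lie above the line and *Psma7* and *Psme1* below it.

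Genes that act with the proteasome moved in both directions as well. Of 35 listed ubiquitin and proteasome partners 25 were measured, 24 of them above background. Of the 25, 10 rose and 12 fell into pachytene and 5 rose and 10 fell into spermatids, with medians of -0.38 and -0.02. Among genes above background 41.0% rose and 41.3% fell into pachytene, with a median of 0.01. Into spermatids 25.7% of them rose and 41.2% fell, with a median of -0.25. *Pomp*, which matures the core, was at 10.37 to 11.73, 9.77 to 10.93 and 7.58 to 8.39 in the successive populations and fell by 0.74 and 2.31 (adjusted p = 2.49e-04 and 1.75e-06). *Sem1*, a small subunit of the regulatory particle that the rule on symbols does not reach, fell by 2.04 into pachytene (adjusted p = 4.29e-06). *Uba6*, an enzyme that activates ubiquitin, fell by 4.52 and 1.98 at the successive steps (adjusted p = 2.72e-07 and 7.57e-05).

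The shuttle factors, which carry tagged proteins to the proteasome, were divided. The X-linked *Ubqln2* was at 9.03 to 9.63 in prepachytene cells and at 2.86 to 3.23, below background, on all later arrays, in contrast to the X-linked *Psmd10*. *Ubqln1* and *Rad23b* rose into pachytene by 1.94 and 2.02 (adjusted p = 1.93e-06 and 2.91e-06). *Ubqlnl* lay at 4.04 to 6.43 in pachytene cells and at 10.21 to 11.56 in spermatids, a rise of 5.48 (adjusted p = 1.03e-05). The proteasome-bound ligase *Ube3c* rose into pachytene by 2.67 (adjusted p = 1.88e-05), as did *Akirin2*, which brings proteasomes into the nucleus, by 1.11 (adjusted p = 3.86e-05).

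Factors known to drive proteasome genes did not share a course. *Nfe2l1* was at 7.46 to 8.65, 7.54 to 8.25 and 6.65 to 7.31 in the successive populations and fell only into spermatids, by 1.07 (adjusted p = 3.54e-04). *Nfe2l2* fell by 4.36 into pachytene and rose by 3.88 afterwards (adjusted p = 1.45e-05 and 6.49e-05). In pachytene cells it was at 6.60 and 4.96 in B6 and 3.53 and 3.02 in PWD, where both arrays were below background. Both factors bind the antioxidant response element named above.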

How the data were processed

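The deposited values were log2 expression values that, per the labels, the authors made with GCRMA from Affymetrix mouse arrays; the study's methods name RMA and a custom probe annotation instead, and the table was used as deposited. Of 45101 probesets 64 controls were left out, leaving 45037: 34945 named 1 gene, 932 several and 9160 none in the platform annotation, and 204 of the first could not be matched to RefSeq. A gene's value is that of its brightest probeset, by the mean of all 12 arrays. limma 3.58.1 (R 4.3.3) estimated the 6 group means in 1 model, with an intensity-dependent variance prior and p-values adjusted over all probesets (Benjamini-Hochberg, 0.05), and was tested on simulated data. With 2 samples a group, p-values measure the spread between these samples. The effect of sequence differences between the strains within probes was not tested. Values on every array went to the alternative subunits and their counterparts, the activators, the inhibitor, X-linked members, and, at each step, the 6 strongest rises and falls among calls with no overlap between arrays and a mean above background. In strain comparisons they went to every call, or to the 5 highest and 5 lowest where more than 10 passed; other probesets were named where called in the opposite direction. Members and lists were chosen with earlier results of these data known. Alternatives were quantile normalization, centring, a filter at background, the median of a gene's probesets, a prior without the trend, the compared groups only, replicate blocks with and without strain, each array left out and, added after seeing the data, probesets without a cross-hybridization suffix. Python 3.11.15 with pandas 2.3.3 made the tables and matplotlib 3.10.9 the figures.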

Additional observations from a re-analysis of the deposited data

Results flagged for a closer look

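For 9 of the 48 proteasome genes the change from prepachytene to pachytene differed between the strains by the test of the difference itself, PWD minus B6 on the log2 scale. The same test called 13.6% of all genes and 17.2% of genes above background, so the count of 9 is close to the latter share. The difference was 2.15 for *Psma8*, 1.61 for *Psmb7*, 1.30 for *Psmg1*, 1.12 for *Psmb5*, 1.11 for *Psmg2* and 1.03 for *Psma1*. It was -2.68 for *Psma7*, -1.63 for *Psme1* and -1.03 for *Psmd3*. *Psmb5*, *Psmb7* and *Psme1* were called in every alternative that was run. By leaving out arrays, *Psma7* was not called without B6 prepachytene replicate 2 (leave-one-out values of -3.12 to -2.24) and *Psmg1* not without either B6 pachytene array (1.07 to 1.52). *Psma8* was not called without either B6 prepachytene array, B6 pachytene replicate 2 or PWD pachytene replicate 2 (1.59 to 2.71). *Psma1* (0.83 to 1.23), *Psmg2* (0.91 to 1.31) and *Psmd3* (-1.19 to -0.87) lost their calls without any of 8, 8 and 9 of the 12 arrays. Calls lost under other settings are given with the processing below. *Psma7* in PWD and *Psme1* in both strains were below background in pachytene cells.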

How the results depend on the processing

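Of 76 results on named members 33 kept their direction and their side of the threshold in all alternatives. Quantile normalization gave 12 members lower in PWD prepachytene cells, 2 higher and 4 lower in PWD pachytene cells, 5 higher in PWD spermatids, and 8 partner genes risen into spermatids. Centring gave 21 members risen into pachytene, 12 risen into spermatids, 16 lower in PWD prepachytene cells, 4 higher in PWD pachytene cells, 15 strain-dependent changes into pachytene, and 10 partner genes risen into spermatids. Testing only probesets above background gave 17 members higher in PWD pachytene cells and 5 in PWD spermatids, where fewer probesets share the adjustment. The median of a gene's probesets gave 2 members risen into spermatids, 5 higher and 4 lower in PWD pachytene cells, and 1 strain-dependent change into spermatids. With only the arrays compared there were 3 members lower in PWD prepachytene cells, 4 higher and 1 lower in PWD pachytene cells, 1 higher and 1 lower in PWD spermatids, and 1 strain-dependent change into spermatids. That setting has fewer samples, and it ended the calls of the strain-dependent changes of *Psma1*, *Psma8* and *Psmd3*, of *Psmf1* into pachytene and of 12 named strain differences. Same-numbered replicates did not deviate together (correlations of -0.25 to 0.08 over 15 pairs), and a replicate block gave 5 members higher in PWD pachytene cells and moved no other count by over 1.5 times, nor did a block within strain. The block ended the calls of the strain-dependent changes of *Psma1*, *Psmd3* and *Psmg2* and of *Psma1* and *Psma4* between strains in pachytene cells. The block within strain ended those of the strain-dependent changes of *Psma7*, *Psmd3* and *Psmg2*, of *Psma8*, *Psmb7* and *Psmc4* between strains in prepachytene cells, of *Psmb6* in pachytene cells and of *Psmb7* into spermatids. Leaving out 1 array gave 4 to 11 and 0 to 2 strain-dependent changes into pachytene and spermatids, 2 to 15 higher and 1 to 4 lower in PWD pachytene cells, 1 to 5 higher in PWD spermatids and 3 to 6 lower in PWD prepachytene cells. The cause of these moves was not tested.

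Beside the calls named above, the median of the probesets ended those of *Psme3* into pachytene (-0.23) and between strains in spermatids (-0.61) and of *Psma1* (0.22), *Psmc1* (0.44) and *Psmd9* (-0.23) between strains in pachytene cells, centring that of *Psmb7* into spermatids (-0.31), and quantile normalization and a prior without trend that of *Psmb11* into pachytene. Not called as deposited but called otherwise were *Psmb10* into pachytene under quantile normalization (0.77) and centring (0.40), *Psmb6* (0.59) and *Psmb9* (0.37) into pachytene and *Psmb11* (0.27) into spermatids under centring, *Psme4* into spermatids under both (0.30 and 0.36), and *Psmd10* into pachytene with only probesets above background tested (-0.87). The median of the probesets reversed *Psmc6* (-1.48), *Psme3* (-0.93) and *Psmf1* (-1.85) into spermatids, *Psmd9* into pachytene (-0.69) and between strains in spermatids (0.15), *Psme4* between strains in prepachytene cells (-0.24) and the strain-dependent change of *Psma1* (-0.17). The other reversals were of differences not called as deposited, of which only that of *Psmb9* under centring was called after it: *Psmb9* into pachytene under quantile normalization (-0.0450), and into spermatids *Psma7*, *Psmb10* and *Psmb6* under quantile normalization (0.0628, 0.0541 and 0.0314) and *Psma7*, *Psmb10*, *Psmb6*, *Psmb9* and *Psme1* under centring (0.22, 0.20, 0.17, 0.24 and 0.21). Leaving out 1 array gave -0.0421 to 0.0622 for *Psmb9* into pachytene, and into spermatids -0.30 to 0.26 for *Psma7*, -0.0772 to 0.0292 for *Psme1*, -0.0098 to 0.0034 for *Psmb9*, -0.17 to 0.0326 for *Psmb6* and -0.0452 to 0.32 for *Psmb8*.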

Other observations

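The probeset that names both *Psme2* and *Psme2b*, which the rule on symbols left out, was at 6.93 and 6.86 in B6 and 8.29 and 8.55 in PWD prepachytene cells and at 2.90 to 2.98, below background, on the 8 other arrays. It was at least 8.84-fold lower in pachytene than in prepachytene cells (adjusted p = 1.26e-08) and differed between the strains in prepachytene cells (1.53, adjusted p = 2.30e-04). The medians of the Sertoli cell and spermatogonia markers on each array, given above, moved with it, and their part was not tested. Of 7 measured genes that serve the immunoproteasome in antigen presentation 2 rose and 3 fell into pachytene. Among all genes 43.7% rose and 28.4% fell at this step. The 7 genes had no common course. *Irf1*, an interferon response factor, was at 5.36 and 5.37 in B6 and 7.37 and 8.94 in PWD prepachytene cells and at 5.35 to 5.64 on the other arrays. *B2m*, the light chain of class I molecules, was at 8.48 to 9.72 in prepachytene cells and 5.84 to 7.50 later. *Tap1*, a peptide transporter, was at 5.54 to 6.40 in PWD pachytene cells and spermatids, at 2.57 to 3.10 in PWD prepachytene cells and at 2.23 to 2.68 on all B6 arrays, the last 2 ranges being below background. *Tap2*, which pairs with *Tap1*, was below background on all 12 arrays, at 2.41 to 2.46. *Tapbp*, which links the transporter to class I molecules, was at 7.79 to 8.64 in prepachytene cells, 11.36 to 11.85 in pachytene cells and 10.14 to 10.65 in spermatids, with overlapping strains in the spermatocytes. *Erap1*, a peptide trimming enzyme, was at 4.39 to 5.93 in prepachytene cells and 2.04 to 2.10, below background, later. *Nlrc5*, an activator of class I genes, was at 4.57 and 4.30 in B6 spermatids and at 2.22 to 2.54 and 2.20 to 2.30 on the other B6 and the PWD arrays.

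*Psmc3ip*, left out by the rule because it encodes a recombination factor, was read by 2 probesets. The brighter one lay at 13.78 to 14.81 in B6 and 10.88 to 12.45 in PWD over the 3 populations, without overlap between the strains. The ranges of the other one, 10.17 to 10.92 in B6 and 9.41 to 10.33 in PWD, overlapped. Its strain differences were -0.66 in prepachytene and -0.76 in pachytene cells, neither called (limma, adjusted p = 0.0715 and 0.0556). In spermatids the difference was -1.15 and called (adjusted p = 0.00964).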
